A study of Mus musculus with 84 samples.

Results

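Transcripts of 4 genes of antibody production were described in the central nucleus of the amygdala of mice that had drunk ethanol: Jchain, Ighm, Igkc and Mzb1, 4 of the 43629 genes in the count table. They were chosen on measured values, because Jchain had shown a relation to ethanol preference in week 13 of the trial that seemed to rest on the 3 libraries with most of it. The week 13 values of these genes, and those of mean preference, which contains week 13, are therefore given as a description with no test. Jchain stood in the table under its older symbol Igj and was matched by its Ensembl identifier, ENSMUSG00000067149.

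The animals were 84 outbred HS-CC mice, 43 females and 41 males, a stock bred from the founder strains of the Collaborative Cross. Their median age was 15 weeks when testing began, and they were housed singly. All of them could choose between water and 10% ethanol for 13 weeks and had ethanol until they were euthanized, so there was no group without ethanol. Preference, the ethanol solution drunk as a fraction of all fluid, in week 13 ran from 0.043 to 0.745 in females (median 0.273) and from 0.022 to 0.684 in males (median 0.142). The nucleus was laser-dissected on both sides from 25 micron sections, and each mouse gave 1 poly(A)-selected library. In such tissue fewer cells of a type and less RNA per cell cannot be told apart. Up to 3 animals came from 1 family, so the animals were not fully independent. Libraries are called by sex and number in the order in which they are listed.

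Antibodies are built of 2 heavy and 2 light chains. The constant part of the heavy chain sets the antibody class, and the light chain is of the kappa or the lambda type. Jchain encodes the joining chain that links IgM and IgA into polymers, Ighm the constant part of the IgM heavy chain, Igkc the constant part of the kappa light chain, and Mzb1 a chaperone of the endoplasmic reticulum that helps B and plasma cells assemble and secrete IgM. Plasma cells are the cells that secrete antibody. In the brain they are known from the meninges and the choroid plexus more than from the tissue itself. Each clone of B or plasma cells joins a single V segment to its heavy chain gene and a single V segment to its light chain gene, so V segments help to tell clones apart.

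The V segments printed here are those with most counts at each locus in the 3 libraries with most Jchain: 3 from male 34, 2 from female 10 and 2 from female 25. Each line gives the last 90 bases of the segment's coding sequence, 5′ to 3′, from the GENCODE transcripts of build GRCm38. Capitals mark its last cysteine codon in frame. The bases after it still belong to the V segment, and the joined part of the chain begins at or near the segment's end.
Ighv1-26: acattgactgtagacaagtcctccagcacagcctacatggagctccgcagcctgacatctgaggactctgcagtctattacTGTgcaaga
Igkv8-21: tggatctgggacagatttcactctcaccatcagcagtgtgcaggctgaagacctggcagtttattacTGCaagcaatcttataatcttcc
Iglv1: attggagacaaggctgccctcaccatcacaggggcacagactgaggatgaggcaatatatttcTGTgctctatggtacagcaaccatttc
Ighv4-1: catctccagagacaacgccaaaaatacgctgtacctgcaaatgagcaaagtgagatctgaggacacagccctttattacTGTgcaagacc
Igkv6-17: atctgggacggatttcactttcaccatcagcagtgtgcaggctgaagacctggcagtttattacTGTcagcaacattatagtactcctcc
Ighv5-17: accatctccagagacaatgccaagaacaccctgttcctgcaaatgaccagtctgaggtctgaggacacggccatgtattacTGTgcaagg
Igkv4-53: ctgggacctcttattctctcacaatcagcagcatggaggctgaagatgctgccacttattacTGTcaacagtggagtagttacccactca
The heavy chain segments lie on the minus strand at chr12:114788372-114788461 (Ighv1-26), chr12:113948282-113948371 (Ighv4-1) and chr12:113859149-113859238 (Ighv5-17). The kappa segments lie at chr6:70314895-70314984 on the minus strand (Igkv8-21), chr6:70371904-70371993 on the plus strand (Igkv6-17) and chr6:69648824-69648913 on the minus strand (Igkv4-53), and the lambda segment Iglv1 at chr16:19085017-19085106 on the minus strand. Over their whole coding sequences the 3 heavy chain segments shared 59.3% to 74.5% of aligned bases with each other, and the 3 kappa segments 63.3% to 73.2%. The segments that led in the 3 libraries were thus different sequences in the reference genome, not near copies of one another. The sequences of the reads were not examined.

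Jchain was detected in all 84 libraries at a low level, with 3 libraries far above the rest. Its gene lies at chr5:88520512-88527891 on the minus strand. The count ran from 4 to 494 with a median of 20, in libraries of 24118965 to 42036566 counts. Male 34 held 494 counts, or 15.5 CPM (counts scaled to a common library total with TMM factors). Female 10 held 389 (12.5 CPM) and female 25 held 317 (9.91 CPM). The next library, female 21, held 116 (3.21 CPM), so no library lay between 3.21 and 9.91 CPM. The median over all libraries was 0.612 CPM, and the 3 highest libraries together held 36.7% of all Jchain counts. They belonged to different runs of sample-sheet numbers in the titles, of which there were 4: male 34 to run 4, female 10 to run 2 and female 25 to run 3.

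Igkc was spread even less evenly. Its single exon lies at chr6:70726435-70726757 on the plus strand. The same 3 libraries led: female 25 held 1181 counts (36.9 CPM), female 10 held 977 (31.5 CPM) and male 34 held 686 (21.6 CPM). Female 41 came next with 244 counts (6.57 CPM). The median was 9.5 counts, 8 libraries had no count, and 62 held at least 3, the count taken here for a library to hold a gene. The 3 highest libraries carried 56.7% of all Igkc counts, and the highest was 122.5 times the median CPM. In the 8 libraries at 0 the chain was not detectable at this depth, since a count of 0 allows up to 3 counts.

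Ighm was present everywhere and was far less confined to these libraries. The gene lies at chr12:113418558-113422730 on the minus strand. Its count ran from 141 to 3179 with a median of 311.5 (10.0 CPM). Female 10 was highest with 3179 counts (102.5 CPM), then male 34 with 2406 (75.7 CPM) and female 32 with 1296 (39 CPM). Female 25 held 355 counts (11.1 CPM), which placed it 38th, although it had the most Igkc. The 3 libraries with most Jchain held 16.7% of all Ighm counts. Per kilobase of the lengths given in the table, the median level of Ighm was 5.32 CPM, against 0.933 for Igkc, 0.337 for Jchain and 0.124 for Mzb1.

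Mzb1 was close to the limit of detection. Its gene lies at chr18:35647266-35649367 on the minus strand. The count ran from 0 to 17 with a median of 3. At least 3 counts were present in 55 libraries and at least 10 in 9, and 7 libraries had none. Male 38 was highest with 17 counts, followed by male 34 with 16 and female 10 with 15, while female 25 had 8. Mzb1 did not pass the filter on low counts that the other 3 members passed. The 3 libraries with most Jchain held 10.2% of its counts.

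**Figure D1:**
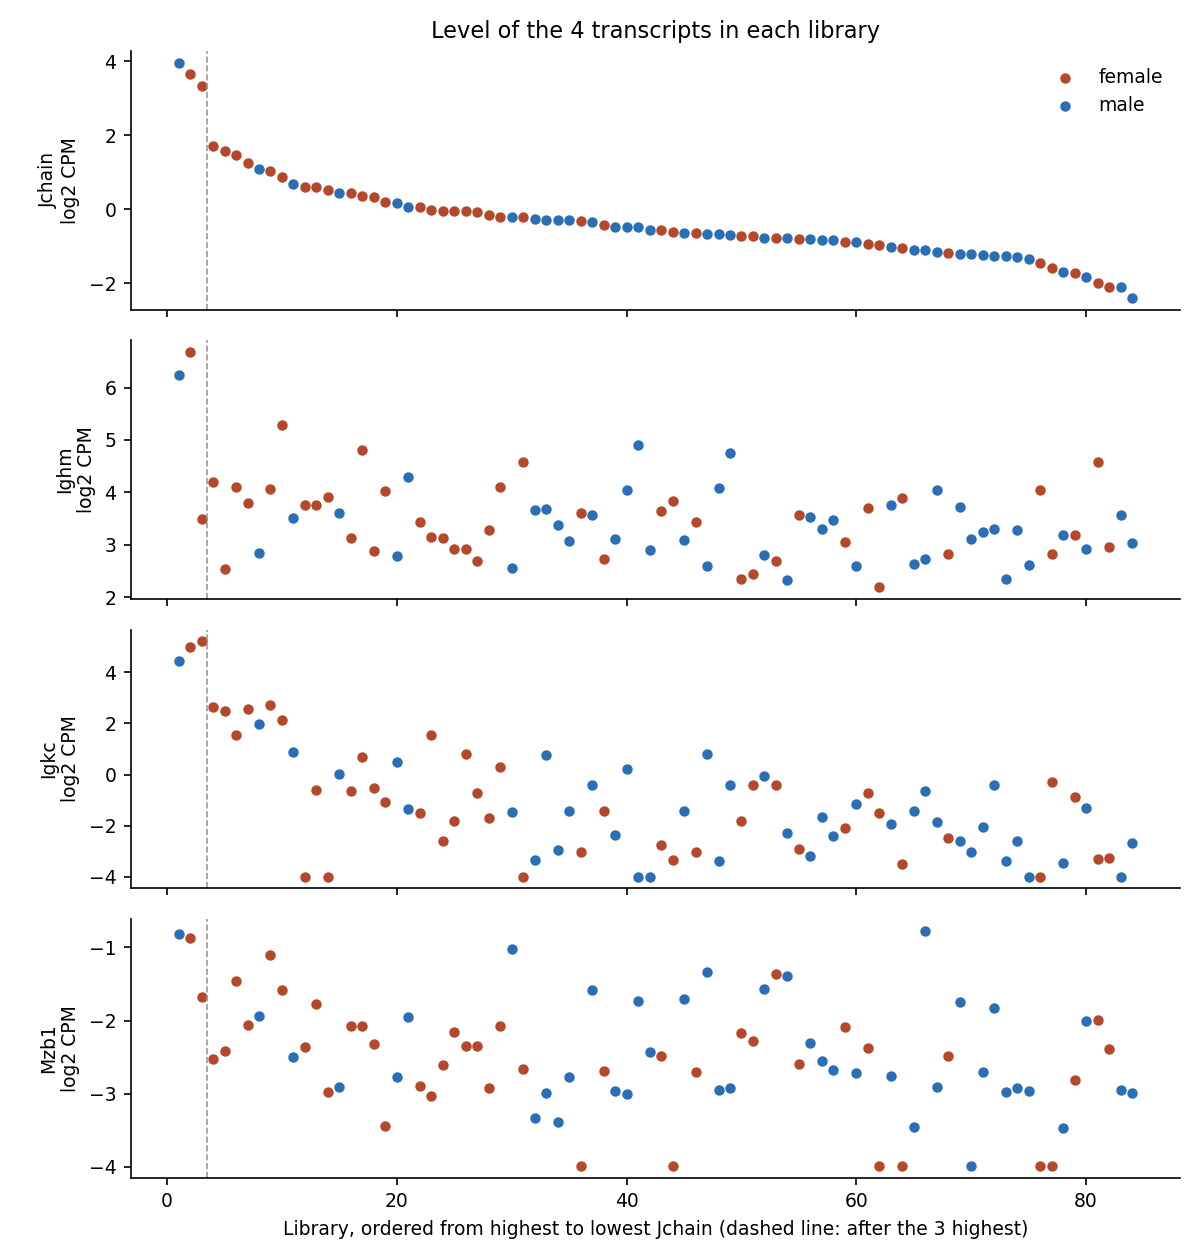
The log2 CPM (prior count 2) of each of the 4 transcripts is plotted for the 84 libraries, ordered from the highest to the lowest Jchain, with females in red and males in blue. The 3 libraries left of the dashed line stand apart for Jchain and Igkc, only male 34 and female 10 do so for Ighm, and Mzb1 has no such gap.

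Jchain and Igkc were highest in the same libraries, while Ighm and Mzb1 followed them loosely. At the low end Jchain and Igkc agreed less. The 8 libraries with no Igkc count had a median of 19.5 Jchain counts, against 20 in all libraries. The 10 libraries with most Jchain were the same 10 that had most Igkc. Of those 10, the 10 highest for Ighm shared 4 and the 10 highest for Mzb1 shared 4. Over 84 libraries Pearson's r of log2 CPM was 0.742 for Jchain and Igkc (Spearman's rho 0.543), and without the 3 highest Jchain libraries it was 0.607. In each of the 4 runs taken alone r was 0.669 to 0.789, and it was 0.752 in females and 0.708 in males. All points share library depth and the same scaling.

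Pairs with Ighm were weaker and leaned on the 3 libraries. For Jchain and Ighm r was 0.485 over 84 libraries and 0.246 over the other 81, and within runs it ran from 0.0767 to 0.658. For Ighm and Igkc it was 0.27, and 0.016 without the 3. Mzb1 had r of 0.491 with Igkc (0.391 without the 3), 0.415 with Jchain (0.264) and 0.189 with Ighm (-0.0113). All 6 pairs of members were described.

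Ighm was also present where the light chain was not detected. In the 8 libraries with no Igkc count, Ighm ran from 6.02 to 29.7 CPM with a median of 14.1 CPM (436.5 counts). In the 42 libraries with at least 10 Igkc counts its median was 300 counts (9.43 CPM). Male 28 had 874 Ighm counts, the fourth highest CPM, with no Igkc and 1 count of V segments. Jchain in the 8 libraries without Igkc ran from 5 to 44 counts with a median of 19.5, close to the median of 20 over all libraries. The V segment counts in these 8 ran from 0 to 16.

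Other genes whose levels went with each member differed between the members. The 5 tested genes most like Ighm by r of log2 CPM over 84 libraries were Inf2, a formin that shapes actin (r 0.75), Tmem200b (0.736), Scn4b, a sodium channel beta subunit abundant in striatal medium spiny neurons (0.718), Rasd2, the striatal GTPase Rhes (0.712), and Rasgrp2, an exchange factor for Rap GTPases (0.707). Without the 3 highest Jchain libraries r with Inf2 was 0.795 and with Scn4b 0.787, so these relations were at least as close. Male 28 had the highest count of Inf2, Scn4b, Rasd2 and Rasgrp2. Neither Jchain nor Igkc was among the 5.

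Those most like Igkc were Jchain (0.742), H2-Aa (0.556), Cd74 (0.518) and H2-Eb1 (0.514), which encode class II antigen presentation proteins, and C3, the central complement component (0.496). Mzb1 was most like Ribc1 (0.527), a protein of ciliary microtubules, 1110017D15Rik (0.506), Ctnnal1 (0.503) and Dsg2, a desmosomal cadherin (0.502). No antibody gene was among these 4.

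The 10 genes most like Jchain were Igkc (0.742), Ighm (0.485), Amhr2 (0.398), 1810026B05Rik (0.39), Col15a1 (0.386), Ripk2 (0.383), Cd74 (0.382), Ccnl1 (0.377), 1600020E01Rik (0.373) and Ankrd10 (0.372). Only 3 of these 10 were still among the 10 without the 3 highest libraries, and 4 by Spearman's rho, so beyond Igkc the list was not stable. The 99th percentile of r over all tested genes was 0.276 for Jchain and 0.554 for Ighm.

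**Figure D2:**
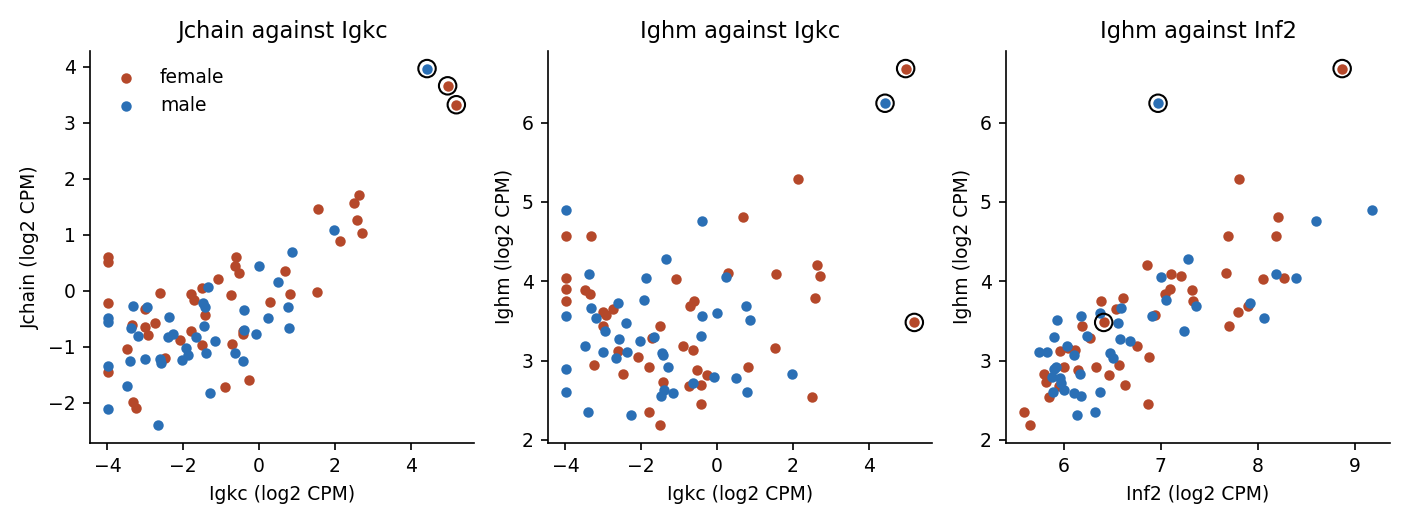
Each point is 1 of the 84 libraries, with axes in log2 CPM (prior count 2) and the 3 libraries with most Jchain ringed. Jchain follows Igkc (r 0.742), Ighm hardly does outside the ringed libraries (r 0.016), and Ighm follows Inf2 (r 0.75).

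The shares of the heavy chain constant genes differed from one library to the next. Shares here are of the 8 heavy chain constant genes, per kilobase of the table's gene length. Ighm was present in all libraries (median 10.0 CPM), also in those with no Igkc count (median 14.1 CPM). In female 25 (11.1 CPM), female 33 (5.75 CPM) and male 4 (7.06 CPM) it was near or below these levels. Its share there need not reflect antibody class, and the part that does was not tested. In female 10 Ighm made up 97.0% and no other class more than 1.29%. In male 34 Ighm made up 84.7% and Ighg1, the constant part of IgG1, 8.3%. Female 25 was of another kind: Ighg1 made up 76.5%, with 2000 counts, and Ighm 18.7%. Those 2000 counts were most of the 3105 Ighg1 counts in all 84 libraries.

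Further down the order of Jchain the shares varied as widely. In female 33 Ighg1 led with 51.0%, and in female 30 Ighg2c with 50.7% (432 counts). Igha, the constant part of IgA, had 20.1% in female 21 (260 counts, its highest) and 32.8% in male 4 (192 counts). Igha was held by 40 libraries, Ighg1 by 20, Ighg2b by 28 and Ighg3 by 17, while Ighe reached 3 counts in 1.

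Ighg2c and Ighd behaved differently from Igha and Ighg1. Ighg2c was held by 78 libraries with a median of 41.5 counts, and Ighd, the constant part of IgD, by 80 with a median of 13. Spearman's rho with Igkc over 84 libraries was -0.112 for Ighg2c and -0.159 for Ighd, against 0.591 for Igha and 0.321 for Ighg1. The 3 libraries with most Jchain held 1.26% of Ighg2c counts and 75.7% of Ighg1 counts. Of lambda constant genes only Iglc2 was measured, with at most 14 counts, in male 34, and Iglc1 and Iglc3 were not analysed here. The heavy chain genes lie next to each other and resemble each other, and the strand setting of the counting is not given in the sources used here, so reads could be shared between them.

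**Figure D3:**
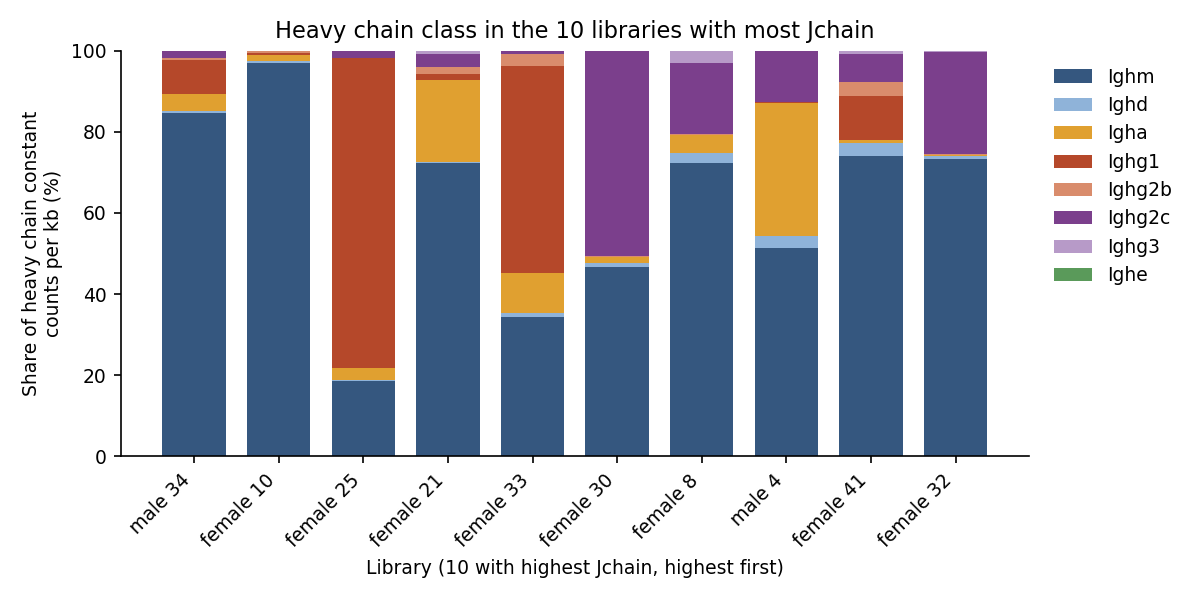
Stacked bars give the share (%) of each of 8 heavy chain constant genes in their summed CPM per kilobase, in the 10 libraries with most Jchain, highest first. Ighm fills most of male 34 and female 10, Ighg1 most of female 25, and Ighg2c, Ighg1 or Igha a large share of others. Ighm was also present in libraries with no Igkc count.

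The 3 libraries with most Jchain differed in their leading heavy and kappa V segments, though female 10 and female 25 shared their second heavy segment. The table held 282 V segments (105 of them kappa and 3 lambda, the rest heavy), of which 154 had a count and 0 passed the filter. Male 34 had 573 V counts and female 10 had 362, and with female 25, the third highest, they held 1129 (44.6%) of all 2530. The median of the other 81 libraries was 6, and 11 of all libraries had 50 or more. No V count was found in 3 libraries. Across libraries the V sum had a rho of 0.63 with Igkc, 0.504 with Jchain, 0.189 with Ighm and 0.105 with Mzb1.

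In male 34, Iglv1 took 99.5% of the lambda counts (exact 95% binomial interval 97.4% to 100%), Igkv8-21 took 68 of 293 kappa counts and Ighv1-26 took 36 of 72 heavy counts. The share of Ighv1-26 was 50.0% (38% to 62.0%), where these intervals cover counting error only. Female 10 had 106 of 263 kappa counts in Igkv6-17 (40.3%, 34.3% to 46.5%) and 24 of 94 heavy counts in Ighv4-1. Female 25 had 64 of 125 kappa counts in Igkv4-53 (51.2%, 42.1% to 60.2%) and 25 of 62 heavy counts in Ighv5-17. Each of these 7 segments had at most 7 counts in any other library.

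Of the 282 V segments, male 34 held 15, female 10 held 15 and female 25 held 11. With so few held, little overlap would be found in any case, and whether it was less or more than chance was not tested. A single segment had 3 or more counts in all 3, 4 in exactly 2 and 30 in exactly 1. At 10 or more counts 2 segments were shared and 20 were found in 1 library. One of the shared was Ighv5-12, named after its values were seen, with 22 counts in female 10 and 18 in female 25. It ranked second among the heavy segments of both, and in female 10 it was close behind Ighv4-1 (24 counts). Segments of 1 family resemble each other closely, so reads may have been assigned to a neighbour.

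Libraries with fewer antibody counts often had a few segments of their own. Female 33 had 59 of 85 kappa counts in Igkv12-46 and 33 of 40 heavy counts in Ighv2-3. Male 4, named after its values were seen, had 44 of 53 kappa counts in Igkv3-1 and 30 of 33 heavy counts in Ighv1-9 (90.9%, 75.7% to 98.1%). Female 41 was led by Igkv8-30 (36 of 93) and Ighv1-37 (8 of 18), and female 21 by Igkv12-44 (30 of 89) and Ighv1-56 (7 of 18). Female 21 also shared Igkv6-15 with female 10, at 13 and 17 counts.

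**Figure D4:**
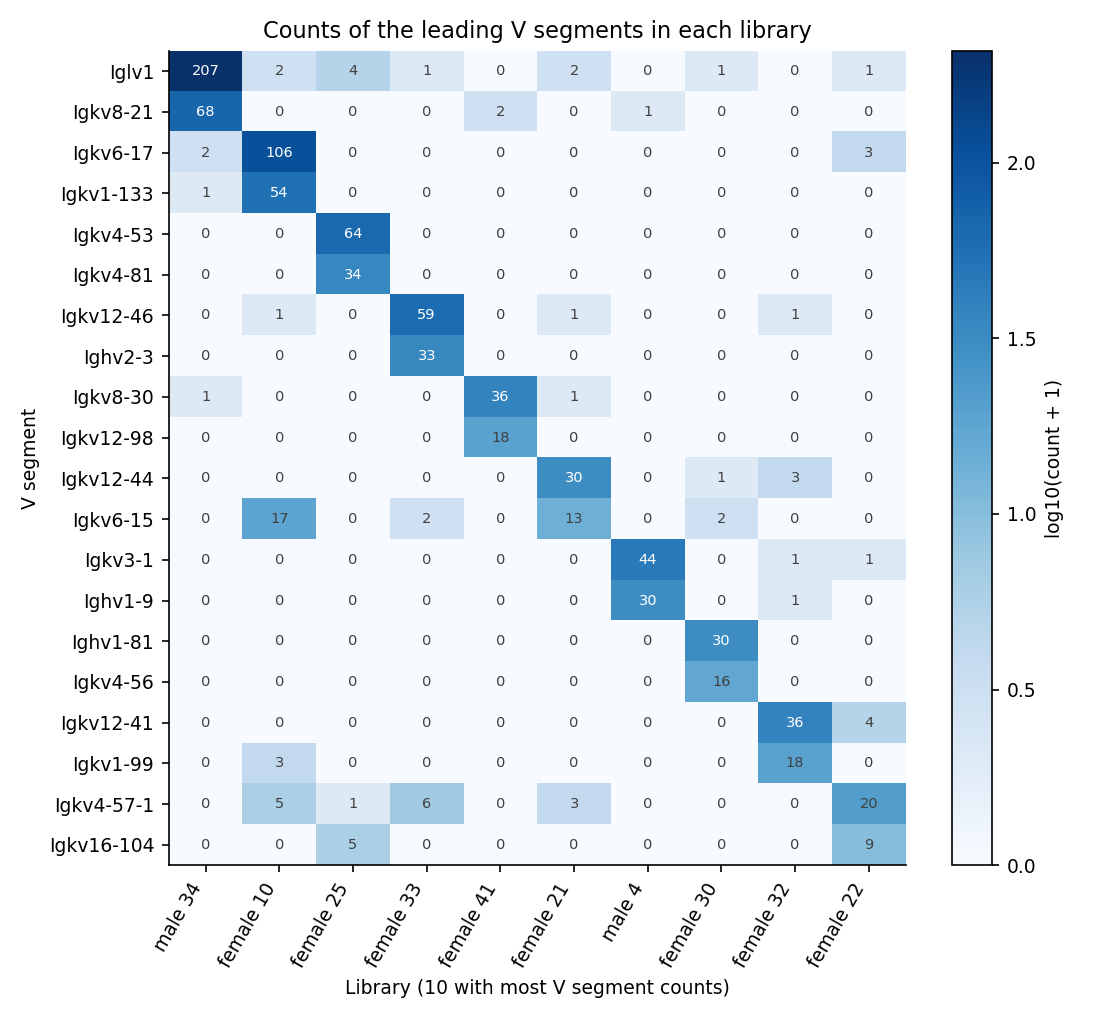
Cells give the count of each V segment (rows, the top 2 of each library) in the 10 libraries with most V counts (columns), shaded by log10(count + 1). Counts lie mostly on the diagonal: 106 of Igkv6-17 in female 10 against at most 3 in any other library, and 64 of Igkv4-53 in female 25 against at most 1.

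The slope of Jchain on week 13 preference had opposite signs in the 2 sexes. The positive sign in males rested on male 34 alone, while in females the slope stayed negative but shrank without the high libraries. Male 34 had a week 13 preference of 0.571, the fourth highest of 41 males. Female 10 had 0.110 and female 25 had 0.049, which placed them 36th and 42nd of 43 females. The highest Jchain thus lay at the high end of preference in males and at the low end in females. Each slope is the log2 change that edgeR's fit over all tested genes gave for a preference higher by 0.5, ± SE. In males the slope of Jchain was 1.73 ± 0.46 (n = 41), and without male 34 it was -0.48 ± 0.33. In females it was -1.69 ± 0.47 (n = 43), without female 10 it was -1.22 ± 0.43, without female 25 it was -1.29, and without both it was -0.48 ± 0.41. So with the 3 libraries left out the slope was -0.48 in either sex, about as large as its SE or somewhat larger.

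Over all animals, with sex as a term, the slope of Jchain was 0.14 ± 0.38. It became -0.48 ± 0.27 without the 3 libraries and -1.19 ± 0.31 without male 34 alone. Taking out female 10 gave 0.37 and taking out female 25 gave 0.42. An ordinary regression on log2 CPM with sex as a term, which gives high counts less pull, had a slope of -0.37 over all libraries, and within runs 1 to 4 the slopes were -0.96, -0.79, -1.09 and 0.43. Run 4 is the one that holds male 34.

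Igkc and Ighm had week 13 slopes of the same signs as Jchain in each sex, and their size too depended on the 3 libraries. The slope of Igkc was 2.04 ± 0.73 in males and -2.82 ± 0.89 in females, and without the 3 libraries -1.02 ± 0.75 and -0.43 ± 0.97. With limma-voom on all libraries it was 0.15 ± 0.89 and 0.05 ± 0.99. Ighm had 0.97 ± 0.30 in males and -0.92 ± 0.33 in females, and 0.27 ± 0.27 and -0.48 ± 0.27 without them. For Mzb1, fitted without the filter, the slopes were 0.77 ± 0.44 in males and 0.16 ± 0.47 in females. Over all animals the slopes were -0.08 ± 0.63 for Igkc, 0.01 ± 0.25 for Ighm and 0.46 ± 0.32 for Mzb1. Of all 16320 genes tested with week 13 preference, edgeR called 0% with the sexes together, 0.0368% in the females alone and 0% in the males alone, at an adjusted p under 0.05. Genes under an unadjusted p of 0.05 numbered 979 over all animals and 610 in males. These shares stand here as a background only, since the members were chosen on this contrast.

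**Figure D5:**
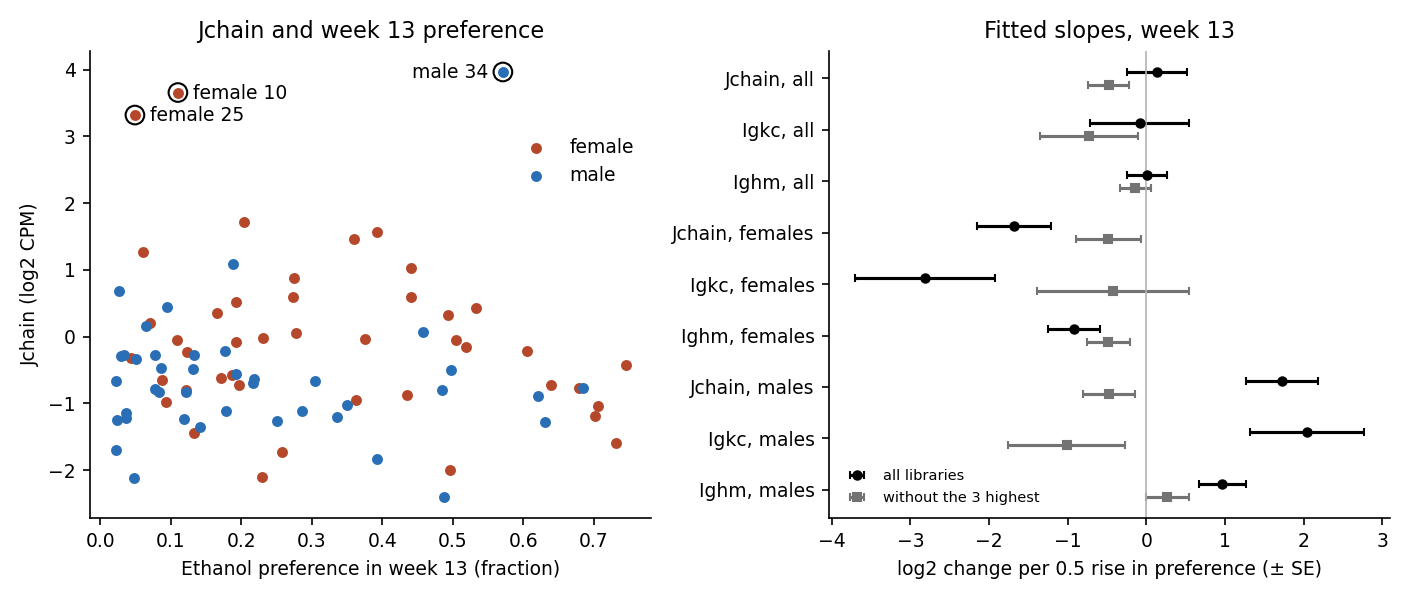
Left, Jchain (log2 CPM) is plotted against week 13 preference (fraction) for females (red) and males (blue), with the 3 highest libraries ringed. Right, edgeR slopes ± SE per 0.5 rise in preference are shown with all libraries (black) and without the 3 (grey): for Jchain the slope of 1.73 in males and that of -1.69 in females both become -0.48.

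Slopes on mean preference over the 13 weeks were smaller than their SE for Igkc and Ighm, and all 3 depended on single libraries. Over all animals they were 0.65 ± 0.52 for Jchain, 0.37 ± 0.86 for Igkc and 0.29 ± 0.35 for Ighm, and 0.66 ± 0.40 for Mzb1 without the filter. Without the 3 libraries the first 3 became -0.41 ± 0.33, -0.72 ± 0.69 and -0.44 ± 0.25. Jchain had 1.28 ± 0.51 without female 25, 0.26 ± 0.48 without female 10 and -0.58 ± 0.43 without male 34. Igkc had 1.70 ± 0.87, -0.30 ± 0.82 and -1.33 ± 0.79 in these fits, and Ighm 0.28 ± 0.35, 0.00 ± 0.28 and -0.15 ± 0.32. With limma-voom the slope of Jchain was -0.25 ± 0.40 and that of Ighm -0.22 ± 0.27. Here edgeR called 0% of genes, with 643 under an unadjusted p of 0.05.

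The sexes were compared because the rule had not used this contrast. Female libraries had a median of 0.831 CPM of Jchain (4 to 389 counts) and male libraries 0.521 CPM (4 to 494 counts). For Igkc the medians were 0.411 CPM (0 to 1181 counts) and 0.25 CPM (0 to 686 counts). The ranges of the sexes overlapped almost fully for both genes. By edgeR's quasi-likelihood test, female minus male was 0.59 ± 0.32 for Jchain, 1.40 ± 0.56 for Igkc and 0.23 ± 0.20 for Ighm on the log2 scale, each with an adjusted p of 0.986. None of the 3 tested members passed, and 0.0919% of all genes did. Mzb1 had -0.11 ± 0.26 without the filter (adjusted p 0.949).

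That outcome turned on male 34. Without this library edgeR gave Jchain 1.28 ± 0.26 higher in females (adjusted p 0.00646) and Igkc 2.42 ± 0.54 higher (adjusted p 0.0213). Male 34 was picked for its high Jchain, while female 10 and female 25, the next highest, stayed in. Leaving out a male so chosen moves the difference towards females, so these edgeR values are a description and not a fair test. DESeq2 at its default settings, given all libraries, called Jchain and Igkc, with 1.28 ± 0.25 (adjusted p 0.000476) and 2.44 ± 0.51 (adjusted p 0.00178). These 2 differences were close to edgeR's without male 34 and not to edgeR's on all libraries (0.59 and 1.40). The DESeq2 calls are therefore not counted as evidence of their own, and how DESeq2 weighed male 34 was not tested. Without all 3 highest libraries Jchain was 0.71 ± 0.20 higher in females, with an edgeR adjusted p of 0.403, and Igkc 1.19 ± 0.45 with 0.998. Without female 10 alone the values were 0.32 ± 0.30 and 0.99 ± 0.54, and without female 25 alone 0.38 ± 0.31 and 0.88 ± 0.54. In all of these fits both were higher in females, and the mean log2 CPM of Jchain was higher in females within each of the 4 runs, by 0.24, 0.78, 1.23 and 0.30.

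Preference in week 1, measured in the same animals at the start of the trial, was also outside the rule. Male 34 (0.034) and female 25 (0.040) were among the low animals of that week, and female 10 (0.233) was above the female median of 0.14. Over all animals the slope was -1.21 ± 0.46 for Jchain, -2.33 ± 0.85 for Igkc and -0.24 ± 0.31 for Ighm, with an edgeR adjusted p of 1.0 for each. Unadjusted p was 0.00965 for Jchain and 0.00779 for Igkc. With limma-voom the slopes of Jchain and Igkc were much smaller, at -0.45 ± 0.39 and -0.44 ± 0.86. Mzb1 had 0.05 ± 0.38 without the filter. No member passed, and 0.0306% of genes did.

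Without the 3 libraries the week 1 slopes became -0.23 ± 0.29 for Jchain and -0.60 ± 0.72 for Igkc. In males the slope of Jchain was -1.43 ± 0.58 (edgeR adjusted p 0.953) and became -0.05 ± 0.36 without male 34. In females it was -0.90 ± 0.70 (edgeR adjusted p 1.0) and -0.22 ± 0.70 without female 25. Genes called were 0.0368% in males and 0% in females, where 369 had an unadjusted p under 0.05. By ordinary regression on log2 CPM the Jchain slope was -0.65, -0.32, -0.45 and -0.12 in runs 1 to 4. Male 34 therefore stood at the low end of preference in week 1 and near the high end in week 13, and the slope of Jchain in males changed sign with it.

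Other plasma cell genes were uneven in the 3 libraries. Male 34 had the highest summed level of the 15 listed genes (302 CPM, against at most 278 in the other 81 libraries), while female 25 ranked 25th and female 10 ranked 37th. Most of this sum came from Xbp1 and Txndc5, which were high in every library (medians 98.3 and 96.5 CPM). In male 34 it also contained 15.5 CPM of Jchain, by which that library was picked. The sum is thus no measure of plasma cells. Of the 15 genes, Jchain included, 11 passed the filter, and edgeR on all libraries called none of them by sex (0.0919% of all genes) or by week 1 preference (0.0306%). The calls of Jchain by sex with DESeq2 and without male 34 are given above. The median sex difference of these 11 was 0.06, against 0.00 over all genes. Those with the highest levels were Xbp1, the transcription factor of the secretory program, Txndc5 and Creld2, which help proteins fold, and Cd38, a surface enzyme of many immune cells. Xbp1 had 4211 counts in male 34, 3267 in female 10 and 3004 in female 25, around a median of 3155 over all libraries. Creld2 had 911, 650 and 668 around a median of 624. Further genes are given here with their values known. Irf4, a transcription factor of plasma cells, had 30, 25 and 17 counts against a median of 14.5, and Prdm1, another, had 11, 17 and 36 against 14.5. Fkbp11 had 49, 40 and 135 counts against a median of 47. Pou2af1, a coactivator of antibody genes, had 11, 14 and 5 against 2, and Tnfrsf17, the BCMA receptor of plasma cells, had 1, 3 and 3 against 4. Of the rest of the list, Derl3 had 83, 61 and 67 counts against a median of 68. Sdc1 had 46, 49 and 61 against 43, and Slamf7 had 1 in each against 1. Eaf2 had 16, 30 and 36 against 24, and Cd38 had 87, 36 and 92 against 55.5. Txndc5 had 3650, 2671 and 3298 against 3082.5. Some listed genes were thus high in 1 or more of the 3 libraries, while others, such as Slamf7 and Tnfrsf17, were high in none.

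Markers of B cells were sparse in all libraries. Of 17 listed, 2 passed the filter, Bank1 and Cd37, which other cells express as well. Neither was called by sex (0.0919% of all genes were) or by week 1 preference (0.0306%). Blk, a B cell kinase, never reached 3 counts. Ms4a1, which encodes CD20, reached 3 counts in 3 libraries, and this gene was picked with its values known. The summed CPM of the list was 4.34 in male 34, 5.48 in female 10 and 6.41 in female 25, against 3.26 to 10.6 in the other 81. None of the 3 libraries was above the range of the others in this sum. Much of it came from Bank1 and Cd37, with means of 1.35 and 3.51 CPM. Single genes, picked with their values known, could differ. Cd79b had 15, 4 and 6 counts in male 34, female 10 and female 25 against a median of 3, and 15 was its highest. Cd79a had 6, 10 and 16 against a median of 6.

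Receptors that bind antibody and factors that keep plasma cells alive varied within the range of the other libraries. Of 9 receptor and transport genes 6 passed, among them Fcgrt, which recycles IgG, Fcgr3, Fcer1g and Fcgr1. None was called by sex (0.0919% of all genes were) or by week 1 preference (0.0306%). Female 25 had the second highest sum (65.5 CPM), while male 34 (45.5) and female 10 (44.6) were near the median of the other 81 (45.7). Of 7 survival genes 6 passed, led by the chemokine Cxcl12, and none was called in these comparisons. Their sum was 73.5 CPM in female 10, the second highest, 48.9 in male 34 and 43.5 in female 25, against a median of 49.5 in the other 81. With so few genes called at all, the lack of calls says little about either list.

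Tissue at the edge of the brain was looked at through marker lists, since plasma cells are known from there. Summed choroid plexus markers (12 genes) were 8190 CPM in male 34, the ninth highest library, while female 25 ranked 40th and female 10 (24.4 CPM) 65th, with 10.6 to 24500 CPM in the other 81. Border macrophage markers (6 genes) were 21.3 CPM in female 25, 13.6 in female 10 and 4.87 in male 34, against a median of 6.67 in the others, and leptomeningeal markers (14 genes) were 591, 345 and 274 against 255. By red cell markers (6 genes) these libraries ranked 24th, 28th and 39th of 84. The 3 libraries thus had no shared high list among these. Across all 84 libraries the rho of Jchain with the choroid plexus sum was 0.0487 and with the leptomeningeal sum 0.0249. Igkc went with these markers more closely: its rho with the 12 choroid plexus genes ran from 0.279 to 0.401, and with the 14 leptomeningeal genes from 0.0785 to 0.515, the highest being Igf2. The part of such tissue in the Jchain and Igkc values was not tested.

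T and NK cell markers (22 genes, 8 passed) were 67.3 CPM in female 10, the second highest library, through Cd4 with 1797 counts, while Cd3e had 2 counts there. One listed gene, Cd28, a T cell costimulatory receptor, rose with week 1 preference over all animals (1.94 ± 0.32, edgeR adjusted p 0.000241) and in males (2.81 ± 0.42, edgeR adjusted p 0.000319). Without male 39, which had 464 of its 1408 counts, the slopes were -0.04 ± 0.28 and 0.01 ± 0.41. Epcam, an epithelial adhesion protein, rose in males (2.07 ± 0.42, edgeR adjusted p 0.0298) and had 0.20 ± 0.43 without male 39. Neutrophil and mast cell markers (12 genes) had 0 that passed the filter.

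Listed markers of central amygdala neurons were present, at levels that varied between libraries. All 10 passed the filter, with a median of 490 CPM for Gad1, which makes GABA, 432 for the enkephalin precursor Penk and 350 for Sst. Others, named with their values known, were lower, with medians of 18.6 CPM for Prkcd and 6.9 for Crh. Penk ran from 49.9 to 1601 CPM, and the choroid plexus marker Ttr from 0.0987 to 23610 CPM. How evenly the nucleus was dissected was not tested. The sum of the list in the 3 libraries with most Jchain was 2010 CPM in male 34, 3110 in female 10 and 2080 in female 25, against 1120 to 4210 in the other 81, so the 3 did not stand apart in it.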

How the data were processed

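RNA of the central amygdala of 84 mice was sequenced. The authors deposited raw counts of reads per gene, per the labels. Per the submitters' processing notes, the build was GRCm38 (mm10) and the tools were STAR, featureCounts 1.6.0 of Subread, DESeq2 and FastQC. For the strand setting, the annotation and any filters: not given in the sources used here. Columns not used numbered 8: 3 of undetermined reads and 5 empty.

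Totals were 24118965 to 42036566 counts per library. Genes were kept by filterByExpr (minimum count 10, minimum total 15, sexes as groups), which left 16320. The fit was edgeR 4.0.16 (R 4.3.3), TMM scaling and robust quasi-likelihood, with Benjamini-Hochberg adjustment over all tested genes and a threshold of 0.05. Preference models of all animals had sex as a term. Slopes are per 0.5 rise in preference, and log2 CPM has a prior count of 2. DESeq2 1.42.0 and limma-voom 3.58.1 were alternatives. The fit was tested on simulated data. Groups, drinking values and runs of sheet numbers came from the labels, and p-values measure the spread between these animals.

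The members and the 15 marker lists were chosen with earlier results of these data known. Named were the members, up to 4 genes with the highest mean CPM of each list, called genes, the top V segments of the 6 libraries with most V counts, the 10 genes most like Jchain and 5 most like each other member. Exceptions are stated, and some genes that the rule names are not reported here. Leaving out male 39, or the 3 highest Jchain libraries one at a time, was chosen after seeing the data.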

Additional observations from a re-analysis of the deposited data

How the results depend on the processing

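Among the sex and week 1 slopes of Jchain, Ighm and Igkc refitted under each alternative, 4 became called (Jchain and Igkc in the sex difference, with DESeq2 and without male 34) and 4 uncalled slopes of Ighm changed sign. The others of these kept direction and call, though not always size. Of the slopes of week 13 and mean preference, which were not tested, 34 moved by 1 SE or more. Where no library was left out, the cause was not tested.

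The week 13 slope of Jchain over all animals was -0.46 with limma-voom and -0.48 without the 3 highest libraries, in females -0.84 and -0.48, and in males 0.20 and -0.48. Leaving out 1 of the 3 gave -1.19 to 0.42 over all animals, -1.29 to -1.22 in females and -0.48 in males. The week 1 slope of Ighm became 0.66 in females with ranks of preference and 0.12 in males without the 3. With 1 library out it was -0.38 to 0.058 over all animals and -0.65 to 0.12 in males.

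The share of tested genes called without the filter was 0.24% for sex (0.0919% with it), 0.224%, 0.0324% and 0.165% for week 1 in all animals, females and males, 0.23%, 0.259% and 0.0972% for week 13, and 0.172% for mean preference. With limma-voom it was 0% for week 1 in all animals and in males and for week 13 in females. With DESeq2 it was 0.0184% for week 1 in males, 1.26% for week 13 in females, 0.0123% in males and 0% for week 13 and mean preference in all animals. With run as a covariate it was 0.0123% for week 1 in males and 0.147% for week 13 in females. With ranks it was 0.0123%, 0.00613% and 0% for week 1 in all animals, females and males, and 0.00613% for week 13 in males. Without 1 library, week 1 gave 0% to 0.0306% over all animals and 0% to 0.0368% in males, 0% in both without male 39.

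Mzb1 reached 10 counts in 9 libraries, and a slope of it came only from the fit without the filter. No paired analysis was possible because the replicate numbers follow the order of listing and pair no animals. Depth limits Mzb1 and the V segments, with a median of 7 counts per library in all.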
